A study of Mus musculus with 15 samples.

Results

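Potassium channel genes were taken as every gene of the deposited table whose symbol began with Kcn followed by a family letter or letters and a number. The name matched 94 genes, of which 93 encode channel subunits or their partners and 1, Kcnq1ot1, is a non-coding RNA. Of these, 29 reached 1 FPKM (fragments per kilobase of transcript, scaled to the mapped fragments of the library) in at least 3 of the 15 libraries. They stand among 13757 genes of the whole table that did so. The remaining 65 did not pass and were not tested, and 19 of them stayed under 0.1 FPKM in every library. RNA came from male wild-type mice of the C57BL/6 strain, 2 to 3 months old, and the tissues were liver, duodenum, jejunum, ileum and large intestine. Each tissue gave 3 libraries, which carry here the tissue and a number taken from the title. The gallbladder was removed from the liver, the gut was flushed, and the protocol names no separation of mucosa from muscle. Nothing in the labels states that a tissue's 3 libraries are from different animals, and the p-values therefore cover no more than the spread among these libraries, possibly a technical one.

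Potassium channels let potassium ions leave the cell and so hold its membrane potential negative. In gut epithelium this exit supplies the electrical driving force for chloride secretion and sodium absorption and recycles the potassium brought in by the sodium pump. In gut muscle and nerve it sets how readily a cell fires and contracts. Voltage-gated channels open on depolarization, calcium-activated channels on a rise of calcium, and inward rectifiers and two-pore channels carry much of the resting current. Auxiliary subunits such as the Kcne and Kcnip proteins change the gating of a pore subunit without forming a pore.

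The liver libraries carried hepatocyte markers at a summed 37103 to 44283 FPKM, against 10.4 to 42.6 in intestinal libraries. The sum of all FPKM was 384287 to 389243 in large intestine and 428494 to 541581 in the other tissues, and the depth of the libraries is unknown. Along the third principal component of all genes, jejunum 24 (40.96) lay beside ileum 27 (37.63), and ileum 24 (6.60) beside jejunum 27 (7.78). These positions go against the labels, so comparisons between sections that use both libraries are also given without them. Jejunum 24 also held 1195 FPKM of 10 summed smooth muscle markers, against 658 and 863 in the other jejunum libraries. Duodenum 28 held 2404 FPKM of 6 summed stomach markers, against at most 1.95 in each of the other libraries. It also held 87.2 FPKM of 7 summed exocrine pancreas markers, against at most 11.96 in each of the other libraries. In whole tissue, fewer cells of a type and less RNA per cell cannot be told apart.

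Promoters of 5 genes are shown because their messages differed along the gut. Kcne3, Kcnk1 and Kcnf1 were highest in large intestine, Kcns3 in duodenum and Kcnip2 in the small intestine. The sequences come from RefSeq on GRCm38.p6 and run from 250 bases before the start site to 50 bases from it, 5′ to 3′ on the gene's strand. They lie at chr7:100176420-100176719 on the plus strand (Kcne3), chr8:125994852-125995151 on the plus strand (Kcnk1), chr12:17176839-17177138 on the minus strand (Kcnf1), chr12:11150793-11151092 on the minus strand (Kcns3) and chr19:45816014-45816313 on the minus strand (Kcnip2). Capitals mark every match to GGGCGG, the GC box.
Kcne3: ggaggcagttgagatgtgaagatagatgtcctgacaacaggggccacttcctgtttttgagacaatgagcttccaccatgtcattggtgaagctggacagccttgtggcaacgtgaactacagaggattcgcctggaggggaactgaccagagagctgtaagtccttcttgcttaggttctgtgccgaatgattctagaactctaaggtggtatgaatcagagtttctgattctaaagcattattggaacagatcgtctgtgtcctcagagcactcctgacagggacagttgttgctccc
Kcnk1: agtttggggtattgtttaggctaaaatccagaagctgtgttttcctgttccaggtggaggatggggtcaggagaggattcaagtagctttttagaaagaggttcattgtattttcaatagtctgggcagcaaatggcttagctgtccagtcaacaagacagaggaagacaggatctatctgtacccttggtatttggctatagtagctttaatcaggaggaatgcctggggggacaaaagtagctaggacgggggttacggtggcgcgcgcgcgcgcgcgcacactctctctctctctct
Kcnf1: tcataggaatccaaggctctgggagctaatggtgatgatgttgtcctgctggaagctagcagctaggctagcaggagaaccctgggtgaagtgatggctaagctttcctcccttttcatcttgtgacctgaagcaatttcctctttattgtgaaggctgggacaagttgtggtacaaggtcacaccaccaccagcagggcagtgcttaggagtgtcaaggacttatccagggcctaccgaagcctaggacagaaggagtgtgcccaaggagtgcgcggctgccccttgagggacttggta
Kcns3: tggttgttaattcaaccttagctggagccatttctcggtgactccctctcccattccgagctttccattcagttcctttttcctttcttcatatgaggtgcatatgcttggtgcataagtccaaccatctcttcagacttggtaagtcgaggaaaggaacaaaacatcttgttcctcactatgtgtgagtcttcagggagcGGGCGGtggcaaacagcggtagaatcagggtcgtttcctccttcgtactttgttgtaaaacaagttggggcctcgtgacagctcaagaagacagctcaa
Kcnip2: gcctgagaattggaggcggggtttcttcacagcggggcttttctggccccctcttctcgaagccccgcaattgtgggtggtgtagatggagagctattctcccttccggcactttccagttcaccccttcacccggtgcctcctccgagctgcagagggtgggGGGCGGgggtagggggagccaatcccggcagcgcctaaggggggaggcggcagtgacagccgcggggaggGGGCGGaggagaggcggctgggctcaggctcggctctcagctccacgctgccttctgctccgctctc
Kcnip2 had 18 CpG pairs in this window and GC boxes that began 87 and 17 bases before the start site, and Kcns3 had 9 CpG pairs and 1 GC box, 49 bases before it. Kcne3 had 4 CpG pairs, Kcnf1 had 3 and Kcnk1 had 10, with no GC box, against a median of 7 CpG pairs over the 32851 promoters of the table. Of the 29 genes, 21 had a promoter in the table and 15 had one whose start site equals the start of the deposited locus. Among these 15, the GC box was found on either strand in 8, against 35.7% of all promoters. The letters TTTATG, a core site of Cdx factors, were found in 0 of 15 (11.85% of all promoters), and AGATAA, which GATA factors bind, in 1 of 15 (11.2%), that of Kcnip4. CAAAGTCCA, an HNF4 site, was found in 0 of 15 (0.475%), and TATAAA, known as the TATA box, in 1 of 15 (13.6%), that of Kcnj13. Both strands were searched, none of the 15 promoters held more than 1 kind of motif, and the Kcnma1 GC boxes that begin 140 and 136 bases before its start site overlap each other. A match is only a match of letters.

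Most potassium channel message lay in a few genes, and liver had little of it. The 29 genes summed to 306.6 ± 10.4 FPKM in large intestine (SD, n = 3, as for the other tissues), 173.1 ± 3.51 in ileum, 185.2 ± 29.6 in jejunum, 155.9 ± 9.24 in duodenum and 20.7 ± 1.83 in liver. In duodenum 80.0% of the sum lay in Kcne3, Kcnk5, Kcnq1, Kcnn4 and Kcnk1, and in jejunum and ileum the same genes gave 77.0% and 78.5%. In large intestine Kcne3, Kcnk1, Kcnq1, Kcnn4 and Kcnk6 gave 73.7%. In liver 84.4% lay in 5 genes, among them Kcnn2, Kcnk5, Kcnj8 and Kcnk6. The highest tissue mean was in large intestine for 18 genes, in duodenum for 4, in jejunum for 3, in ileum for 2 and in liver for 2, among them Kcnn2. How all genes divide among the tissues was not counted, so these numbers describe the 29 genes alone.

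**Figure D1:**
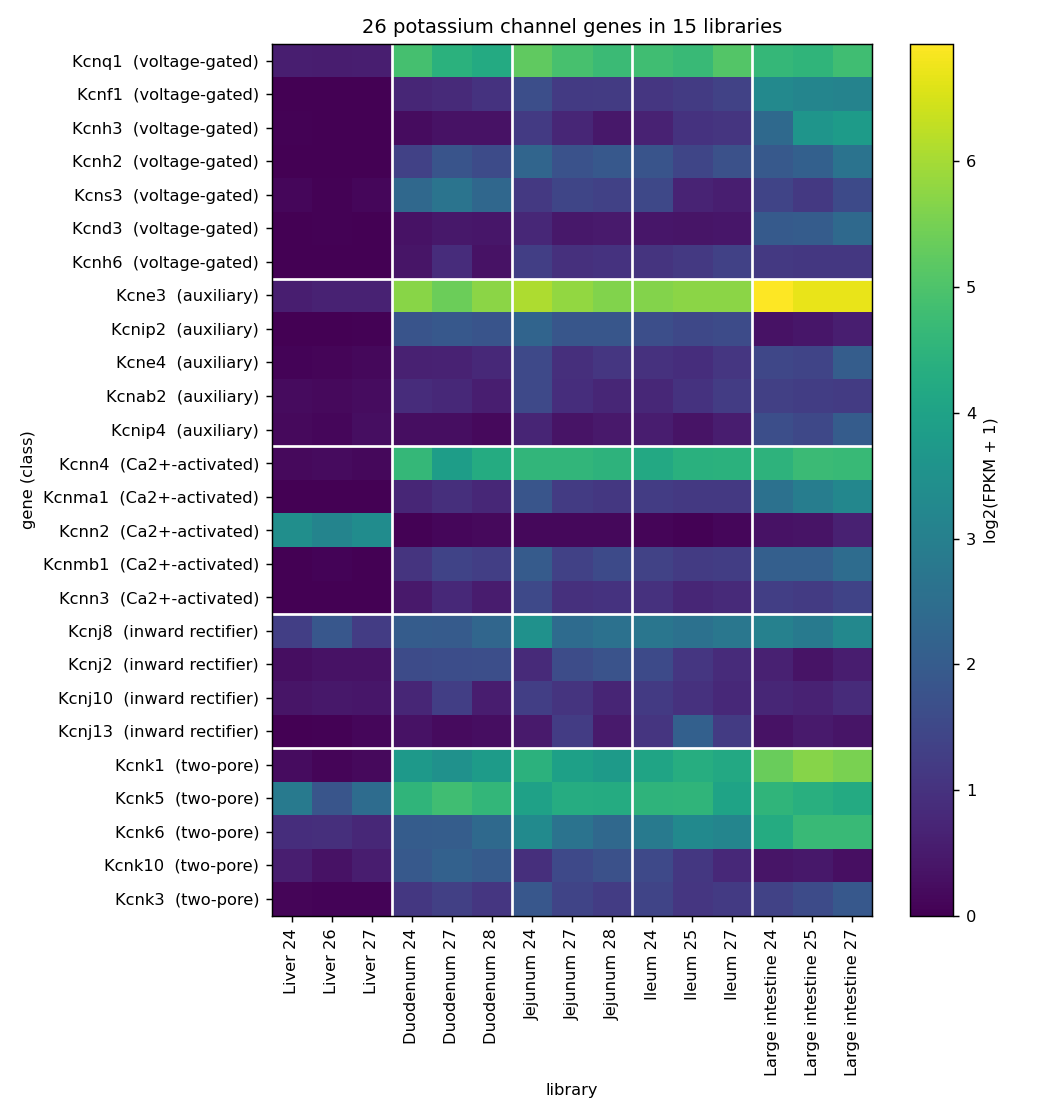
Level of 26 of the 29 genes (rows, by class and then by mean level) in each of the 15 libraries (columns, by tissue), as log2(FPKM + 1) on the colour scale. Kcne3 is the brightest row in every intestinal library, and Kcnn2 is bright in the 3 liver libraries alone.

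A gene was called where its adjusted p (limma on log2(FPKM + 1), Benjamini-Hochberg over all 13757 genes) was under 0.05 and its log2 difference at least 1 in size. Duodenum against liver called 13 genes higher and 1 lower, or 48.3% of the 29, where 39.8% of all genes were called, 30.6% higher and 9.19% lower. Jejunum against liver called 18 higher and 1 lower, or 65.5%, where 45.8% of all genes were called, 36.9% higher and 8.94% lower. Ileum against liver called 15 higher and 1 lower, or 55.2%, where 43.6% of all genes were called, 34.3% higher and 9.24% lower. Large intestine against liver called 21 higher and 1 lower, or 75.9%, where 50.8% of all genes were called, 41.8% higher and 8.99% lower. The gene lower in each section was Kcnn2. These 4 comparisons share the liver libraries. A gene that passed the filter through intestinal libraries alone had to be lower in liver than in those libraries. Of the 29 genes, 25 had no liver library at 1 FPKM, so the counts describe the genes and support nothing further. The median gene of the whole table was higher than liver by a log2 of 0.58 in duodenum, 0.73 in jejunum, 0.68 in ileum, against 0.83 in large intestine. With median-of-ratios scaling these medians fell to between 0.02 and 0.03, and the calls were 12 higher and 2 lower in duodenum, 13 and 1 in jejunum, 14 and 1 in ileum and 17 and 2 in large intestine. Quantile normalization gave 8 and 2, 9 and 2, 10 and 2, and 12 and 2.

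Among voltage-gated pore subunits, Kcnq1 led the whole gut and Kcnh3, Kcnf1 and Kcnd3 were higher in large intestine than in the small intestine. Of 40 such genes 10 passed. Kcnq1, the Kv7.1 pore that forms a constantly open basolateral channel with Kcne3, was 0.489, 0.480 and 0.494 FPKM in liver 24, 26 and 27. It was 28.8, 20.3 and 18.04 in duodenum 24, 27 and 28, 36.7, 28.99 and 25.7 in jejunum 24, 27 and 28, 26.9, 25.1 and 32.7 in ileum 24, 25 and 27, and 23.8, 22.3 and 26.9 in large intestine 24, 25 and 27. Every intestinal library lay far above every liver library, and the intestinal sections overlapped. Kcnq1 was higher than liver by a log2 of 3.95 in duodenum, 4.39 in jejunum, 4.29 in ileum, against 4.08 in large intestine (SE 0.16 each, limma adjusted p of at most 2.96e-11), and no comparison between sections called it. Its antisense neighbour Kcnq1ot1 stayed at or under 0.0678 FPKM in every library.

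Kcnh3, the Kv12.2 pore, was 4.16, 11.3 and 12.9 FPKM in large intestine 24, 25 and 27, between 0.180 and 1.26 in the 9 small intestine libraries, and at most 0.0245 in liver. Large intestine 24 was well under the other large intestine libraries but above every small intestine library. Kcnf1, the electrically silent Kv5.1 subunit that modifies other pore subunits, was 8.57, 7.88 and 7.65 FPKM in large intestine. It was 0.689, 0.777 and 1.01 in duodenum, 2.19, 1.26 and 1.30 in jejunum and 1.16, 1.30 and 1.60 in ileum, and was listed at 0 in the 3 liver libraries. Its large intestine libraries lay close together and clear of the small intestine. Kcnd3, the Kv4.3 pore of A-type current, was 2.93, 3.07 and 4.20 FPKM in large intestine and between 0.260 and 0.718 in the small intestine, and at most 0.0215 in liver.

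The ERG pore subunits were low and did not separate the sections by a called difference. Kcnh2, the ERG1 pore, was 1.54 to 2.51 FPKM in duodenum, 2.36 to 3.77 in jejunum, 1.71 to 2.51 in ileum, against 2.85 to 5.20 in large intestine and at most 0.00516 in liver. Its relative Kcnh6 (ERG2) was listed at 0 in the liver libraries and was between 0.262 and 1.52 FPKM in the intestine. Over the 5 tissues 26 of the 29 genes were called for any difference (F test, range of tissue means of at least 1), against 62.2% of all genes, and the inward rectifier Kcnj10 was among the 3 that were not. Kcnh2 was called higher than liver in the 4 sections. Kcnh6 was called in jejunum, ileum and large intestine, but in jejunum not with either other scaling or without jejunum 24 (log2 0.98), and in large intestine not with either scaling.

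Kcne3 was the most abundant potassium channel gene of every intestinal section and rose again in large intestine. Of 12 auxiliary genes 5 passed. Kcne3, a single-span subunit that holds Kcnq1 open (chr7:100176670-100184869, mm10), was 0.488, 0.574 and 0.582 FPKM in the liver libraries. It was 51.3, 40.9 and 52.0 in duodenum, 66.9, 55.1 and 47.9 in jejunum, 49.5, 52.2 and 52.5 in ileum and 121.3, 104.0 and 104.2 in large intestine. The 3 large intestine libraries stood above all small intestine libraries. The difference from liver was a log2 of 4.98 in duodenum and 6.16 in large intestine (SE 0.12, adjusted p = 8.99e-14 and 8.72e-15 in limma). Large intestine exceeded the mean of the small intestine sections by 1.07 (SE 0.10, adjusted p = 7.01e-07 in limma). That call sat at the threshold: it was 0.88 with median-of-ratios scaling and 0.997 without large intestine 24.

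Kcne3 and Kcnq1 stood in different proportions along the gut. The ratio of their FPKM was 1.78, 2.01 and 2.88 in duodenum, 1.82, 1.90 and 1.87 in jejunum and 1.84, 2.08 and 1.61 in ileum. In large intestine 24, 25 and 27 it was 5.11, 4.67 and 3.88, above every small intestine library. It was 1.98 ± 0.365 in the small intestine (SD, n = 9) and 4.55 ± 0.621 in large intestine (SD, n = 3), and 1.12 ± 0.111 in liver, where both genes were under 1 FPKM. An exact two-sided permutation test of the mean log2 ratio gave p = 0.00909, the smallest this design can give, for a comparison chosen after the values were seen. Without jejunum 24 and ileum 24 the small intestine ratio was 2.02 ± 0.410 (SD, n = 7) and the same exact permutation test gave p = 0.0167, again the smallest possible. The test takes the libraries as independent, which the labels do not state. It also takes the small intestine libraries as 1 group, although they come from 3 sections.

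**Figure D2:**
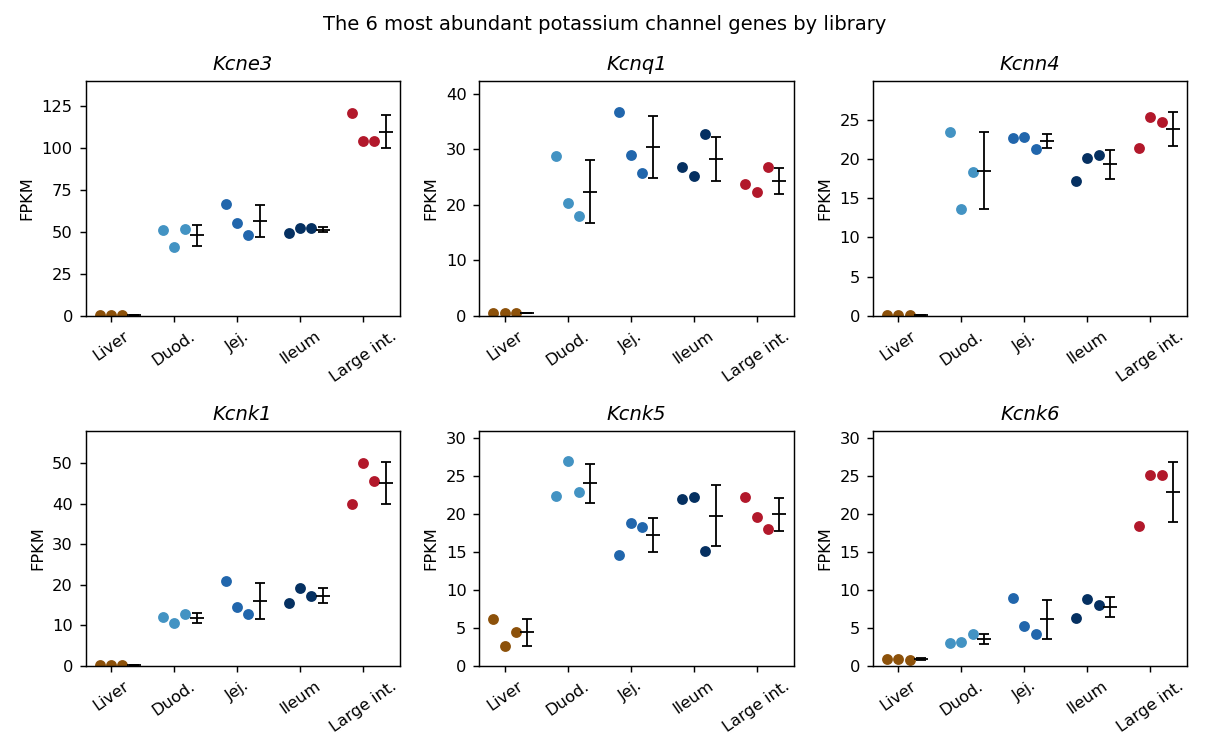
FPKM (y axes, from 0) of the 6 most abundant genes by tissue, 1 point per library, with the mean and SD of 3 libraries as bars beside them. Kcne3, Kcnk1 and Kcnk6 step up in large intestine, while Kcnq1, Kcnn4 and Kcnk5 overlap among the intestinal sections.

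Kcnip2 and Kcnip4, which bind Kv4 pores such as Kcnd3, went in opposite directions between the small and large intestine. Kcnip2 (KChIP2) was 2.47, 2.77 and 2.49 FPKM in duodenum, 3.72, 2.59 and 2.60 in jejunum, 2.18, 1.81 and 1.99 in ileum and 0.262, 0.343 and 0.494 in large intestine. Kcnip4 (KChIP4) was 0.131 to 0.188 FPKM in duodenum, 0.299 to 0.658 in jejunum, 0.299 to 0.474 in ileum and 2.19, 1.86 and 3.06 in large intestine. Neither gene's large intestine libraries overlapped those of the small intestine, and each reached 1 FPKM in the part of the gut where it was high and nowhere else, so that the filter fixed these directions. Large intestine differed from the mean of the small intestine by a log2 of -1.35 for Kcnip2 (SE 0.09, adjusted p = 3.3e-08 in limma) and by 1.32 for Kcnip4 (SE 0.10, adjusted p = 1.25e-07). Kcnd3, their pore partner, differed by 1.66 (SE 0.09, adjusted p = 4.31e-09 in limma), and it too reached 1 FPKM in large intestine alone. Kcnip2 was at most 0.027 FPKM in liver and was called higher in the 3 small intestine sections (1.82, 1.96 and 1.56) but not in large intestine. The labels do not say whether reads were counted by strand, and for 7 of the 29 genes over 5% of annotated exonic bases overlap genes on the opposite strand. Among them were Kcnn2 (8.13%), Kcnk1 (8.01%), Kcnip4 (7.36%), Kcnma1 (5.99%) and Kcnk3 (5.76%), and Kcnj13 had the largest share.

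The auxiliary genes Kcne4 and Kcnab2 were low throughout. Kcne4, an inhibitory partner of Kcnq1 and other pores, was 0.548, 0.569 and 0.725 FPKM in duodenum, 1.91, 0.899 and 1.15 in jejunum, 0.974, 0.881 and 1.12 in ileum and 1.77, 1.68 and 3.13 in large intestine, with 0.0548, 0.0593 and 0.108 in liver. Jejunum 24 lay within the large intestine range and the other small intestine libraries under it. Kcne4 was called higher than liver in large intestine (1.54) and in jejunum (1.09), and the jejunum call ended without jejunum 24 (0.91) and with either other scaling. Quantile normalization also ended the large intestine call (0.58). Kcnab2, the Kv beta 2 subunit, was 1.31 to 1.496 FPKM in large intestine and 0.132 to 0.168 in liver. Its call in large intestine (1.06) ended under both other scalings, at 0.76 by median-of-ratios and 0.04 by quantile.

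Among calcium-activated channels, Kcnn2 was a liver gene, Kcnn4 was abundant along the whole gut and Kcnma1 was higher in large intestine. Of 12 genes in this class 5 passed. Kcnn2, the small-conductance channel SK2, was 9.70, 7.79 and 9.35 FPKM in liver 24, 26 and 27. In the intestine it was 0.0285 to 0.138 in duodenum, 0.1 to 0.112 in jejunum, 0.0291 to 0.0886 in ileum and 0.272, 0.295 and 0.559 in large intestine. Every liver library lay above every intestinal library, and Kcnn2 reached 1 FPKM in liver alone, so that the filter fixed this direction. Its log2 difference from liver was -3.19 in duodenum, -3.16 in jejunum, -3.22 in ileum, against -2.86 in large intestine (SE 0.10 each, adjusted p of at most 3.75e-12 in limma), and these calls held with each scaling. Its relative Kcnn1 (SK1), which did not pass the filter, was 0.88, 0.51 and 0.88 FPKM in the liver libraries and at most 0.41 in the intestine.

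Kcnn4, the intermediate-conductance channel that serves calcium-driven secretion and is also found in lymphocytes, was 0.138, 0.156 and 0.111 FPKM in liver. It was 23.4, 13.6 and 18.4 in duodenum, 22.7, 22.8 and 21.3 in jejunum, 17.2, 20.2 and 20.5 in ileum and 21.4, 25.4 and 24.7 in large intestine. The sections overlapped, and none of the comparisons between sections called it. It was higher than liver by a log2 of 4.07 in duodenum, 4.36 in jejunum, 4.16 in ileum, against 4.45 in large intestine (SE 0.14 each, adjusted p of at most 5.9e-12 in limma). Summed T cell markers, by comparison, were 24.2 to 27.5 FPKM in duodenum and 3.9 to 11.7 in large intestine, and their part in Kcnn4 was not tested.

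Kcnma1, the large-conductance BK pore, was 0.682, 0.912 and 0.692 FPKM in duodenum, 2.55, 1.29 and 1.19 in jejunum, 1.33, 1.23 and 1.24 in ileum and 5.05, 6.65 and 8.24 in large intestine. Kcnmb1, the BK beta 1 subunit of smooth muscle, was 1.08, 1.65 and 1.46 FPKM in duodenum, 3.00, 1.52 and 1.92 in jejunum, 1.60, 1.32 and 1.38 in ileum and 3.27, 3.28 and 4.44 in large intestine. The large intestine libraries of both genes lay above all small intestine libraries, and jejunum 24 was the highest small intestine library for both. Large intestine exceeded the mean of the small intestine by a log2 of 1.79 for Kcnma1 (SE 0.14, adjusted p = 1.73e-07 in limma), a call, while Kcnmb1 at 0.82 (SE 0.13) stayed under the size needed. Lrrc26, a BK gamma subunit of secretory epithelium, was 32.1 to 34.1 FPKM in large intestine, 19.5 to 27.7 in ileum, 14.5 to 27.9 in jejunum, 11.1 to 14.4 in duodenum and 0.0187 to 0.0239 in liver. Kcnn3 (SK3) was at most 0.0133 FPKM in liver, 0.395 to 1.87 in the small intestine and 1.31 to 1.63 in large intestine, and its jejunum call against liver (1.15) ended without jejunum 24 (0.97). With quantile normalization the calls against liver of Kcnn3 in jejunum and large intestine, of Kcnma1 in jejunum and ileum, and of Kcnmb1 in duodenum and ileum all ended.

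Among two-pore channels, Kcnk1 and Kcnk6 were higher in large intestine and Kcnk10 lower. Of 14 such genes 5 passed. Kcnk1, the TWIK1 channel, was 0.176, 0.0728 and 0.128 FPKM in liver, 12.1, 10.5 and 12.9 in duodenum, 21.0, 14.4 and 12.6 in jejunum, 15.4, 19.1 and 17.2 in ileum and 39.9, 50.1 and 45.5 in large intestine. Kcnk6, the related TWIK2, was 0.876, 0.910 and 0.709 FPKM in liver, 3.02, 3.15 and 4.19 in duodenum, 8.94, 5.21 and 4.11 in jejunum, 6.24, 8.81 and 7.94 in ileum and 18.3, 25.1 and 25.2 in large intestine. For both genes no large intestine library overlapped the small intestine. Large intestine exceeded the mean of the small intestine by a log2 of 1.55 for Kcnk1 (SE 0.12, adjusted p = 2e-07 in limma) and 1.89 for Kcnk6 (SE 0.17, adjusted p = 7.39e-07). Against liver, Kcnk1 was higher by 3.50 in duodenum and 5.35 in large intestine, and Kcnk6 by 1.27 and 3.69. The duodenum call of Kcnk6 ended with median-of-ratios scaling (0.86) and quantile normalization (0.56), and its jejunum call with the latter (0.98).

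Kcnk5, the alkaline-sensitive TASK2 channel, was the only one of the abundant intestinal genes that was also well represented in liver. It was 6.14, 2.56 and 4.49 FPKM in liver, 22.3, 26.97 and 22.9 in duodenum, 14.6, 18.8 and 18.3 in jejunum, 22.0, 22.3 and 15.1 in ileum and 22.3, 19.6 and 17.99 in large intestine. No intestinal library overlapped the liver. Its log2 difference from liver was 2.27 in duodenum (SE 0.21, adjusted p = 3.51e-07 in limma), 1.80 in jejunum, 1.98 in ileum, against 2.01 in large intestine. The jejunum call fell just under the size needed with median-of-ratios scaling (0.99). Kcnk3 (TASK1), an acid-sensitive channel, was 0.0476 to 0.069 FPKM in liver, 1.14 to 2.68 in the small intestine and 1.60 to 2.74 in large intestine, and its calls against liver in the 4 sections ended with quantile normalization (0.43 to 0.61).

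Kcnk10, the stretch-sensitive TREK2 channel, ran the other way from Kcnk1 and Kcnk6. It was 2.83, 3.43 and 2.98 FPKM in duodenum, 0.904, 1.89 and 2.30 in jejunum, 1.89, 1.17 and 0.738 in ileum and 0.316, 0.364 and 0.217 in large intestine, with 0.487, 0.271 and 0.473 in liver. The duodenum libraries were the highest, and the large intestine libraries overlapped those of liver. Large intestine differed from the mean of the small intestine by a log2 of -1.15 (SE 0.16, adjusted p = 3.63e-05 in limma), and duodenum from liver by 1.53 (SE 0.20, adjusted p = 6.26e-06), or 0.82 with quantile normalization, which ended that call. Only small intestine libraries, 7 of them, reached 1 FPKM, so the filter fixed both directions.

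Inward rectifiers were low to moderate, and Kcnj8 was the most abundant of the 4 that passed out of 15. Kcnj8 is the Kir6.1 pore of the vascular and smooth muscle ATP-sensitive channel. It was 1.43, 2.71 and 1.33 FPKM in liver, 3.02, 2.96 and 3.89 in duodenum, 10.4, 4.37 and 5.04 in jejunum, 5.60, 5.04 and 5.66 in ileum and 7.19, 6.28 and 8.38 in large intestine. Jejunum 24 was the highest library of all, and every intestinal library lay above every liver library. The calls against liver in jejunum (1.38), ileum (1.22) and large intestine (1.58) ended under both other scalings: median-of-ratios gave 0.69, 0.59 and 0.79, while quantile normalization gave 0.52, 0.41 and 0.60. Abcc9, the sulfonylurea receptor SUR2 that pairs with Kcnj8, was 3.96 to 5.75 FPKM in large intestine, 2.12 to 2.66 in ileum, 2.98 to 6.36 in jejunum, 1.83 to 2.71 in duodenum and 2.42 to 3.57 in liver, and no comparison called it.

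Kcnj2, the strong rectifier Kir2.1, was 2.02, 2.09 and 2.16 FPKM in duodenum, 0.789, 2.06 and 2.45 in jejunum, 1.94, 1.16 and 0.815 in ileum and 0.554, 0.279 and 0.460 in large intestine, with 0.188 to 0.268 in liver. Large intestine lay under every small intestine library. Kcnj2 reached 1 FPKM in small intestine libraries alone, so the filter fixed its direction against liver and large intestine. Kcnj2 was called higher than liver in duodenum (1.32, SE 0.21, adjusted p = 5.62e-05 in limma) and in jejunum (1.10), where the call ended without jejunum 28 (0.92) and with either other scaling. The duodenum call ended with quantile normalization (0.61). Kcnj13, the Kir7.1 channel of transporting epithelia, was 1.11, 3.35 and 1.30 FPKM in ileum 24, 25 and 27 and 0.427, 1.35 and 0.414 in jejunum, and at most 0.405 elsewhere. Large intestine was under ileum by a log2 of -1.06 (SE 0.24, adjusted p = 0.00242 in limma), a call that rested on ileum 25 and was -0.73 without it, and -0.97 with quantile normalization. Ileum was over liver by 1.41, a call that also ended with quantile normalization (0.89). Kcnj13 too reached 1 FPKM in small intestine libraries alone, so the filter fixed both directions. Of the annotated exonic bases of Kcnj13, 49.1% overlap exons of Gigyf2 on the opposite strand, so reads of these genes may not be separable. Kcnj10 (Kir4.1), known from glia and kidney, was 0.324, 0.363 and 0.335 FPKM in liver, 0.664, 1.43 and 0.473 in duodenum, 1.45, 1.07 and 0.653 in jejunum, 1.24, 0.990 and 0.748 in ileum and 0.678, 0.596 and 0.821 in large intestine. Its intestinal sections overlapped.

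Large intestine against the mean of the small intestine sections called 10 of the 29 genes (34.5%), where 14.6% of all genes were called. The 8 higher were Kcnh3, at a log2 of 2.59 (SE 0.24, adjusted p = 1.22e-06 in limma), Kcnf1 at 2.03 (SE 0.10, adjusted p = 2.5e-09), Kcnk6, Kcnma1, Kcnd3, Kcnk1, Kcnip4 and Kcne3, and the 2 lower were Kcnip2 and Kcnk10. In mm10, Kcnh3 at chr15:99224976-99242817, Kcnf1 at chr12:17172100-17176888, Kcnk6 at chr7:29221928-29232522, Kcnma1 at chr14:23298694-24004205, Kcnd3 at chr3:105452330-105674002 and Kcnk1 at chr8:125995102-126030688 are protein-coding genes, as are Kcnip2 at chr19:45792346-45816063 and Kcnk10 at chr12:98433994-98577940. Of all genes, 8.78% were called higher and 5.84% lower. Kcnd3 and Kcnip4 reached 1 FPKM in large intestine libraries alone, and Kcnip2 and Kcnk10 in small intestine libraries alone, so the filter fixed the direction of 4 of these 10 calls. It did the same for Kcnn2 in liver and for Kcnj2 and Kcnj13 in the small intestine. Without jejunum 24 and ileum 24 the calls were again 8 higher and 2 lower (2115 of all genes). Kcnip4 against ileum (1.24) was just under the size needed with quantile normalization (0.99), and Kcne3 against ileum (1.08) with median-of-ratios scaling (0.90). The 3 large intestine libraries lay above all 9 small intestine libraries for 10 genes, where 27.4% of all genes did so, and below for Kcnip2, Kcnj2 and Kcnk10, where 12.5% of all genes did. Without jejunum 24 and ileum 24 they lay above for 16 genes (37.8% of all genes) and below for 3 (13.3%). Large intestine against ileum gave the same number of calls, 8 higher and 2 lower (all genes 13.8%, of which 8.29% higher and 5.5% lower), with Kcnj13 in place of Kcnk10.

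**Figure D3:**
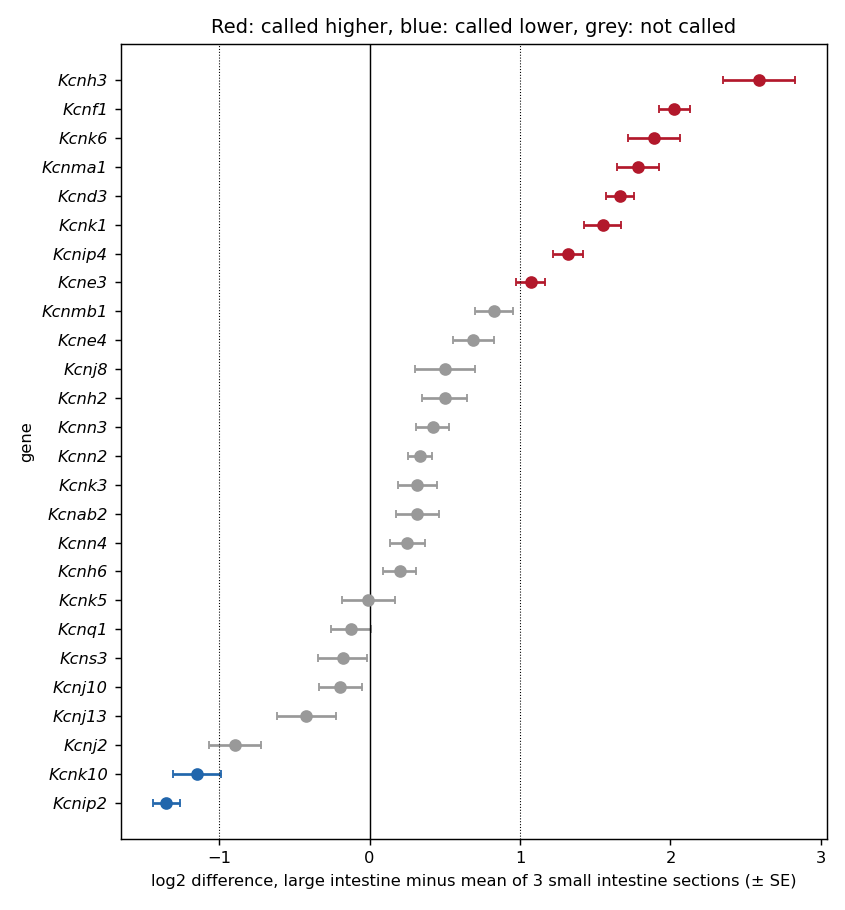
Difference of 26 of the 29 genes between large intestine and the mean of duodenum, jejunum and ileum, in log2(FPKM + 1), with 1 SE on each side; dotted lines mark a difference of 1. The 8 red genes lie above 1 and the 2 blue genes, Kcnk10 and Kcnip2, below -1.

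Smooth muscle markers moved with the same contrast. The 10 smooth muscle markers summed to 565 to 1195 FPKM in the small intestine, 2417 to 3537 in large intestine and 19.9 to 22.4 in liver, and 9 of 10 were called higher in large intestine than in the small intestine, with none at 0. Of 10 enteric neuron markers that passed, 1 was called higher and the 11 of the list summed to 32.4 to 57.9 FPKM in the small intestine and 65.5 to 95.8 in large intestine. Of 3 markers of interstitial cells of Cajal, the gut pacemakers, 2 were higher, with sums of 5.52 to 18.3 and 56.5 to 67.9 FPKM, much of the latter being Ano1, which epithelium also expresses. The 7 epithelial markers summed to 2374 to 4027 FPKM in the small intestine and 2697 to 3309 in large intestine, and overlapped. The part of these cell types in the channel genes was not tested. Large intestine 27, with the highest smooth muscle sum, was the highest large intestine library for 19 of the 29 genes (40.9% of all genes), and jejunum 24 the highest jejunum library for 22 (66.4% of all genes).

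Levels were also set against the marker sums, as a description. Per 1000 FPKM of smooth muscle markers, Kcnd3 was 0.46 to 0.64 in the small intestine and 1.19 to 1.22 in large intestine, and stayed apart. Kcnma1 was 1.01 to 2.14 and 2.09 to 2.64 and overlapped through jejunum 24 alone, while Kcnmb1 was 1.91 to 2.86 and 1.26 to 1.35, lower in large intestine. Kcnh2 was also lower on this scale in large intestine, at 1.18 to 1.47 against 2.65 to 4.34. Per 1000 FPKM of epithelial markers, Kcne3 was 13.0 to 22.9 in the small intestine and 31.4 to 45.0 in large intestine, and Kcnk1 was 4.41 to 7.19 and 14.8 to 15.9. Kcnk6 was 1.16 to 3.06 and 6.80 to 8.78 on that scale, Kcnf1 0.27 to 0.75 and 2.38 to 3.18, and Kcnh3 0.069 to 0.432 and 1.54 to 4.49, none of them overlapping. Per 1000 FPKM of smooth muscle markers none of these genes had every large intestine library above the small intestine. Large intestine 24 and 25 did lie above it for Kcnf1, and large intestine 25 and 27 for Kcnh3. On that scale Kcne3 was lower there, at 29.5 to 50.2 against 55.6 to 90.9, and the others overlapped, with Kcnk1 at 12.9 to 19.9 against 14.6 to 29.6, Kcnk6 at 7.11 to 10.003 against 4.77 to 13.6, Kcnf1 at 2.16 to 3.55 against 1.22 to 2.67 and Kcnh3 at 1.72 to 4.50 against 0.32 to 1.85. Kcnq1, Kcnn4 and Kcnk5 overlapped between small and large intestine on the epithelial scale, as did Kcnh2 and Kcnmb1. Kcnd3, at 0.077 to 0.246 and 0.926 to 1.47, and Kcnma1, at 0.25 to 0.87 and 1.87 to 2.87, stayed apart on that scale. Set against the summed markers of interstitial cells of Cajal, however, Kcnd3 and Kcnma1 both overlapped between small and large intestine. Levels against the enteric neuron markers are not given.

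**Figure D4:**
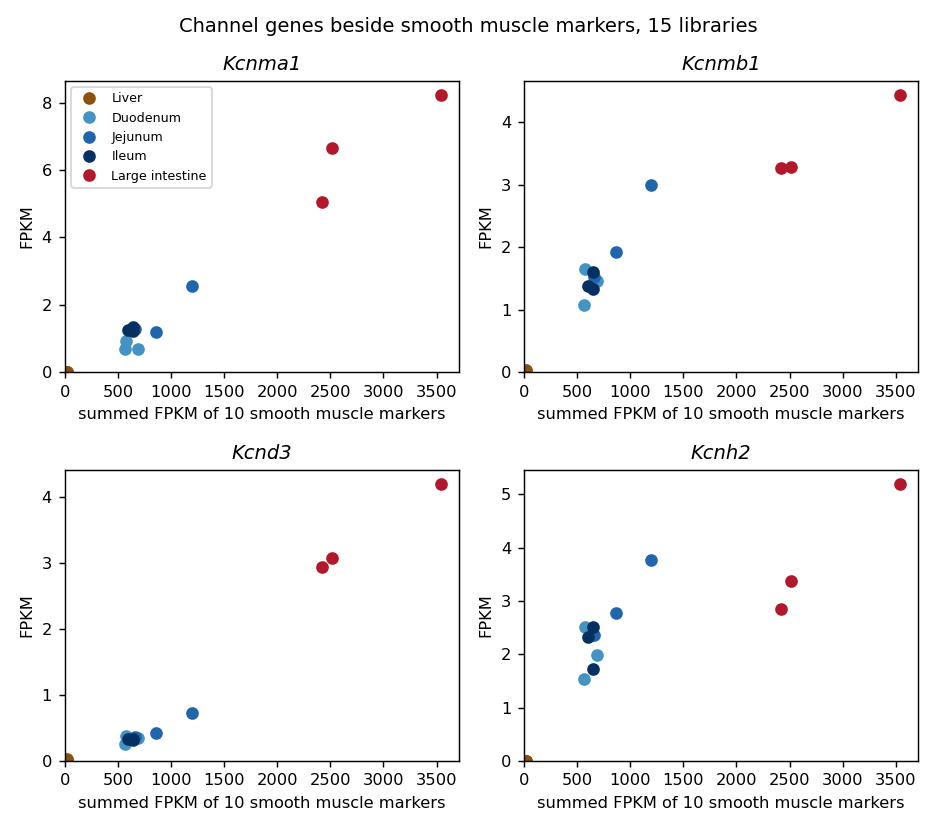
FPKM of 4 genes (y axes) against the summed FPKM of 10 smooth muscle markers (x axes), 1 point per library and 1 colour per tissue. For Kcnh2 the jejunum library with 1195 FPKM of markers (3.77) lies above 2 large intestine libraries (2.85 and 3.38), and Kcnd3 stays under 0.72 FPKM in every small intestine library.

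Within the small intestine few differences passed. Jejunum against duodenum called 1 of the 29 genes (3.45%), where 1.79% of all genes were called, 0.807% higher and 0.981% lower. Over the whole table this was 246 genes, 100 without jejunum 24 and ileum 24, and between 66 (without jejunum 24) and 473 (without jejunum 28) when 1 library was left out. That gene was Kcns3, the silent Kv9.3 subunit that modifies other pore subunits, at 4.04, 5.31 and 3.96 FPKM in duodenum, 1.20, 1.74 and 1.54 in jejunum, 1.85, 0.603 and 0.511 in ileum, 1.67, 1.23 and 1.96 in large intestine and at most 0.093 in liver. The duodenum libraries lay above all others. The log2 difference was -1.12 (SE 0.20, adjusted p = 0.0093 in limma). Against liver, Kcns3 was called in duodenum (2.34), jejunum (1.22) and large intestine (1.28), the last 2 not with quantile normalization (0.40 and 0.35).

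Ileum against jejunum called 0 of the 29 genes in limma, and 0% of all genes. At an unadjusted p under 0.05 there were 5 of the 29, among them Kcnip2, Kcnj13, Kcnmb1 and Kcnn3, and 927 of all genes. Without jejunum 24 and ileum 24 the count was still 0 of the 29 with 9 at an unadjusted p under 0.05, where 2045 of all genes reached that p and 198 were called. For Kcnk10 and Kcnj2 jejunum 24 was the lowest jejunum library and ileum 24 the highest ileum library, and the same held for Kcns3. Leaving both out, Kcnk10 was 1.89 and 2.30 FPKM in jejunum and 1.17 and 0.738 in ileum, and Kcnj2 was 2.06 and 2.45 against 1.16 and 0.815.

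**Figure D5:**
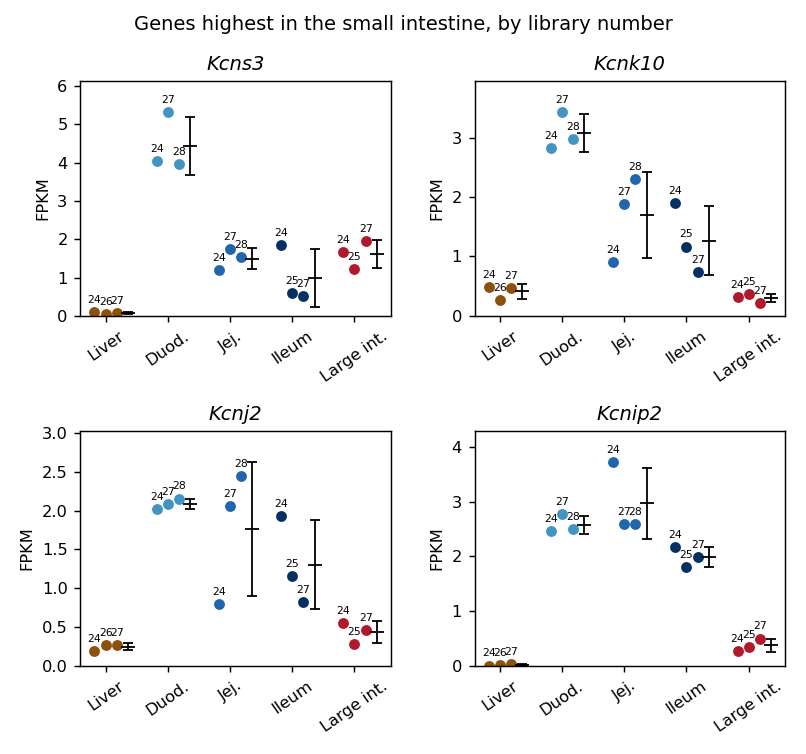
FPKM (y axes, from 0) of 4 genes whose highest mean was in duodenum or jejunum, 1 point per library with its title number, and the mean and SD of 3 libraries as bars beside them. Jejunum 24 lies low and ileum 24 high for Kcns3, Kcnk10 and Kcnj2, and Kcnip2 is under 0.5 FPKM in large intestine.

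Genes that work beside potassium channels in ion transport were taken from chosen lists, and the same liver libraries serve each comparison with liver. Of 14 sodium pump subunits and regulators 12 passed, and 9 were higher than liver in duodenum, 9 in jejunum, 7 in ileum, against 10 in large intestine, and 1, Fxyd1, was lower in each. Of all genes 30.6%, 36.9%, 34.3% and 41.8% were called higher in the same order. Of 7 cation chloride cotransporters 4 passed, of which 3 were higher than liver in duodenum and 2 in each other section, and 1, Slc12a4, was lower in duodenum (-1.18). Slc12a2, the NKCC1 carrier that loads chloride for secretion, was higher than liver in each section (3.89 to 4.71) and not called between sections. Of 7 genes chosen for chloride and sodium transport 6 passed. Of these 3 were higher than liver in duodenum, 4 in jejunum and ileum alike, against 6 in large intestine, and 1, Scnn1a, was lower in duodenum (-1.14). Ano1, Scnn1a and Scnn1b were higher in large intestine than in the mean of the small intestine (3.02, 2.80 and 1.85). Of 9 partner subunits of ATP-sensitive, BK and Kv4 channels 3 passed, and Lrrc26 was higher than liver in each section, with Dpp10, a Kv4 partner, higher in large intestine (1.44).

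The filter left some genes close to it. Kcnh6 and Kcnj10 lay just inside, with a third-highest library at 1.22 and 1.24 FPKM, and Kcna2, Kcne2 and Kcnk2 just outside, at 0.98, 0.81 and 0.79. Kcne1, the cardiac and ear partner of Kcnq1, was listed at 0 in the 15 libraries, as was Kcnh5. Kcnj11, the Kir6.2 pore of endocrine cells, was listed at 0 in liver and was 0.246, 0.290 and 0.192 FPKM in duodenum, 0.393, 0.262 and 0.190 in jejunum, 0.188, 0.204 and 0.275 in ileum and 0.183, 0.321 and 0.411 in large intestine. The sections overlapped. Kcnj16, the Kir5.1 partner of Kcnj10, was 0.264, 0.363 and 0.195 FPKM in liver, 0.170, 0.258 and 0.121 in duodenum, 0.417, 0.211 and 0.219 in jejunum, 0.317, 0.230 and 0.218 in ileum and 0.0481, 0.0622 and 0.0698 in large intestine, which lay under every other library.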

How the data were processed

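The authors deposited FPKM values in 1 table of 23845 gene records, whose 15 columns each match a library, with 0 left over. Per the submitters' processing notes, the tools were CASAVA, FastQC, TopHat2 2.0.3, Bowtie 0.12.8, SAMtools 0.1.18 and Cufflinks 2.0.0, with the mm10 build. The annotation is not given in the sources used here. Libraries were made with an Illumina TruSeq RNA kit, per the labels' protocols.

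Records that share a symbol were summed (754 records, none of them a potassium channel gene), and 27 symbols turned into dates were kept apart by locus. Genes with at least 1 FPKM in at least 3 libraries entered limma 3.58.1 (R 4.3.3, statmod 1.5.0) as log2(FPKM + 1), with a mean per tissue and eBayes with trend and robust settings. The fold change on this scale understates that of low genes. The 8 comparisons and an F test used all 15 libraries, with p-values adjusted over 13757 genes, and the fit was tested on simulated data. Depth is unknown, so no counting interval is given. Some members and partner genes are not reported here by name, and are left out of the figures but not of the counts. Values in every library were given for the 3 most abundant genes per class, the called genes with the largest differences and a chosen list, and for others near them. The members and lists were chosen with earlier results of these data known. Loci are mm10 positions of the deposited table, starts raised by 1, and exon overlaps come from GENCODE M21. Python 3.11.15 was used with matplotlib 3.10.9 for figures, and with scipy 1.17.1, numpy 2.4.6 and pandas 2.3.3. Alternatives were a pseudocount of 0.1, no filter, 2 other scalings, a block by title number, records kept apart, and leaving out libraries, of which the ratio of Kcne3 to Kcnq1 and the overlap counts without jejunum 24 and ileum 24 were added after the data were seen.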

Additional observations from a re-analysis of the deposited data

How the results depend on the processing

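Counts of called genes mostly kept within 1.5 times of those reported. With a pseudocount of 0.1, duodenum against liver called 25 genes rather than 14, ileum against liver 28 rather than 16 and jejunum against duodenum 4 rather than 1, since low values then weigh more. With quantile normalization, jejunum against liver called 11 rather than 19 and large intestine against liver 14 rather than 22. Leaving out 1 library at a time gave 14 to 14 in duodenum, 17 to 20 in jejunum, 16 to 17 in ileum and 22 to 22 in large intestine against liver. It gave 1 to 1 for jejunum against duodenum, 0 to 0 for ileum against jejunum, 9 to 10 for large intestine against ileum and against the small intestine mean, and 26 to 26 over the 5 tissues. Of 92 gene differences called, 59 were called under every alternative and 0 reversed. Median-of-ratios scaling ended 13, quantile normalization 30, leaving out jejunum 24 and ileum 24 together 3, and leaving out 1 library 6 of 1380 refits. Same-numbered libraries did not deviate together: of 22 such pairs in different tissues 4 correlated above 0.1 in their deviations from the tissue mean (median r 0.0014). The lowest r, -0.49, was that of jejunum 24 with ileum 24, whose positions go against the labels. These correlations cannot show whether same-numbered libraries share an animal. With the number as a replicate block, jejunum against liver called 20, and the other counts stayed at 14, 16, 22, 1, 0, 10, 10 and 26. Keeping records apart and dropping the filter changed no count. Neither could add a gene, since no potassium channel gene had shared records and the fit without the filter counted the same genes. The depth behind each FPKM is unknown, which limits what can be said of genes near 0.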

Other observations

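Some channel genes that did not pass the filter are given here as values with no test, chosen after they were seen. Kcne2, an accessory subunit that partners Kcnq1 in the acid-secreting stomach, was 0.812, 1.25 and 1.35 FPKM in large intestine 24, 25 and 27 and at most 0.0646 in the other 12 libraries. Duodenum 28, which held stomach markers, had 0.0121 FPKM of Kcne2. Its 3 potassium proton pump genes, with those of the acid-secreting stomach among them, summed to only 0.151 FPKM. A stomach source of Kcne2 was not tested. Kcnip1, another Kv4 partner, was 0.76, 1.05 and 1.66 FPKM in large intestine and 0.12 to 0.36 in the small intestine. Kcna3, the Kv1.3 channel of lymphocytes, was 1.34, 0.515 and 0.268 FPKM in jejunum 24, 27 and 28 and 0.315, 0.319 and 0.959 in ileum 24, 25 and 27, and at most 0.446 in the other libraries, so that the sections overlapped. Summed B cell markers were 86.0 FPKM in jejunum 24 and 74.0 in ileum 27, the highest of the 15, and their part in Kcna3 was not tested.

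The large intestine libraries differed widely in 3 genes, picked after their values were seen. Kcnh3 was 4.16 FPKM in large intestine 24, against 11.3 and 12.9 in large intestine 25 and 27. Atp12a, the colonic potassium proton pump that takes up potassium, was 28.3 FPKM in large intestine 24, 2.32 in large intestine 25 and 0.39 in large intestine 27, and at most 0.044 in the other 12 libraries. Fxyd4, a sodium pump regulator, was 8.57, 0.25 and 0.06 FPKM in the same order and listed at 0 in liver, duodenum, jejunum and ileum. The titles shorten the tissue to Col, and the labels do not say from which position along the large intestine each library came.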
